A study of Mus musculus with 4 samples.

Results

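The genes described here are those whose symbols name pore-forming or auxiliary subunits of potassium channels (Kcn), voltage-gated sodium channels (Scn), voltage-gated calcium channels (Cacna1 and Cacnb) and hyperpolarization-activated cation channels (Hcn). Earlier results of these data were known when this set of genes was chosen. Its members were taken by symbol alone, with no measured value, and came to 123 of the 32285 genes counted. In the order used below these were 10 sodium channel alpha subunits, 4 sodium channel beta subunits, 9 calcium channel alpha1 subunits, 4 calcium channel beta subunits, 40 voltage-gated potassium channel alpha subunits with 11 auxiliary subunits, 15 inward rectifiers, 14 two-pore domain potassium channels, 12 calcium- or sodium-activated potassium channels and 4 HCN channels. At least 1 UMI (unique molecular identifier, standing for 1 captured RNA molecule) was found for 119 of the 123, and Kcna7, Kcng4, Kcnj1 and Kcnk16 were at 0 in all kept cells.

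The libraries were droplet single-cell RNA libraries of the rostral neocortex of mouse embryos at E15.5. In the 2 i4F-Nes libraries the genotype was Nestin-Cre;i4F;ROSA-STOP-rtTA, in which Cre from a Nestin transgene, active in neural progenitors, lets the transactivator rtTA be made, and rtTA with doxycycline switches on the i4F cassette (Pou5f1, Sox2, Klf4 and Myc). The 2 CTR libraries came from littermates of genotype i4F;ROSA-STOP-rtTA, which carry the cassette and the silent transactivator but no Cre. Both groups received doxycycline, 0.2 mg/ml in the drinking water of the pregnant females, over the 4 days that began at E10.5 and ended at E14.5, so neither group was untreated. The labels do not say whether replicates came from separate embryos or from pools.

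Sodium and calcium channels carry the depolarizing currents of action potentials and of synaptic and transcriptional calcium entry, while potassium channels set the resting potential, repolarize the cell and limit its firing. In the embryonic cortex radial glia divide at the ventricle, intermediate progenitors are their amplifying daughters, newborn neurons migrate outward, and layer 6, layer 5 and upper-layer neurons settle in that birth order, while inhibitory interneurons arrive from the ganglionic eminences below. Neurons acquire their voltage-gated channels along this path, and electrical excitability follows.

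The files held 35255 cell barcodes, and 26641 cells were kept. Kept cells numbered 7498, 6407, 6046 and 6690 in i4F-Nes 1, i4F-Nes 2, CTR 1 and CTR 2, the order in which every set of 4 values is given here, and their median depth was 15140.5, 11342, 15134.5 and 11617 UMIs. Between 8 and 19 kept barcodes were shared by each pair of libraries. Cells were sorted into classes by marker genes, none of them a channel gene, and 17049 of the kept cells entered a class. There were 2000 radial glia-like, 2539 intermediate progenitor-like, 1412 newborn neuron-like, 4112 upper-layer neuron-like, 1797 layer 5 neuron-like, 2716 layer 6 neuron-like and 716 interneuron-like cells, besides smaller classes and the reprogrammed cells described last. The labels call all cells cortical neurons, while the classes also held progenitors, microglia and vascular cells. Each of the 6 other main classes had a higher summed level of its own marker list than any other class, but the layer 5 list (Fezf2, Bcl11b, Crym, Ldb2, Etv1, Pcp4) summed to 1780.2 CPM (UMIs of a gene per 1000000 UMIs of that class) in the layer 5 class and 1899.4 in the layer 6 class. The layer 5 class is therefore defined by its rule, Fezf2 and Bcl11b with no Tle4, and the name is only a label for that rule.

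Levels are given as CPM within one class and library unless said otherwise. A level is compared between cell classes for the same gene and not between genes. All cells were collected at E15.5, so the path from radial glia to layer neurons is an order of classes and not a course followed over time. A start, rise or fall along it is a difference between classes of this stage. Since deep-layer neurons settle first, the newborn cells sampled need not be precursors of the layer 6 or layer 5 cells sampled. With a start defined as the first class along the path with at least 10 CPM in every library, 20 channel genes started in radial glia-like cells, 7 in intermediate progenitor-like cells, 12 in newborn neuron-like cells and 12 in the layer neurons, while 72 reached this level in every library in none of them. The number at or above 10 CPM in every library was 20, 24, 37, 41, 39 and 46 in radial glia-like, intermediate progenitor-like, newborn, upper-layer, layer 5 and layer 6 neuron-like cells, and 39 in interneuron-like cells. Among all genes, 9211, 8925, 8680, 8653, 8697, 8810 and 9112 had a mean of at least 10 CPM in these classes, in the same order. That limit is on the mean and not on every library. Starts were not counted over all genes. The genes just inside the limit in radial glia-like cells were Kcnh5, Kcnb2 and Kcnq3, whose lowest libraries had 10.2, 10.48 and 10.7 CPM, and the nearest outside were Cacna1c and Cacnb3 with 8.47 and 7.53 CPM. A limit of 5 CPM gave 25, 14, 7 and 9 genes at the successive steps, and one of 20 CPM gave 11, 10, 7 and 13.

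**Figure D1:**
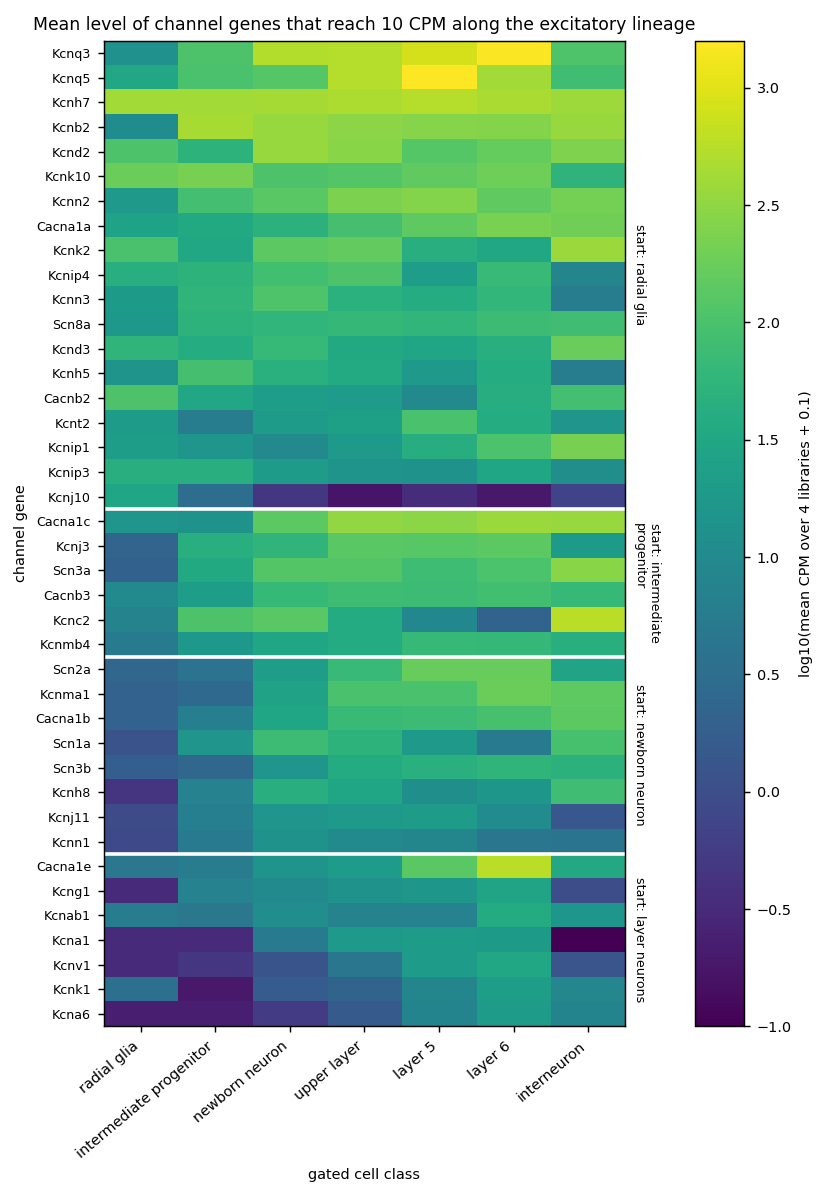
Heat map of 40 channel genes named in the text that reached 10 CPM in every library of at least 1 class of the excitatory path, with one row per gene, grouped by the class in which it started, and one column per cell class. Colour is the log10 of the mean CPM over 4 libraries plus 0.1. Of the rows, 19 start in radial glia-like, 6 in intermediate progenitor-like and 8 in newborn neuron-like cells and 7 in the layer neurons.

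Sodium channel alpha subunits, which form the pore of the fast sodium current, started in different classes. Scn8a, later the main channel of the axon initial segment, was the only 1 of the 10 that started in radial glia-like cells, with 21.0, 19.9, 15.3 and 13.9 CPM there and 55.5, 53.9, 48.9 and 49.1 CPM in intermediate progenitor-like cells. Scn3a, known as the embryonic sodium channel, had 0.930, 4.13, 1.55 and 0.941 CPM in radial glia-like cells and 42.2, 27.8, 35.8 and 35.3 CPM in intermediate progenitor-like cells. It rose again in newborn neuron-like cells, to 127, 129, 91.4 and 121 CPM, and the ranges of these classes did not overlap at either step. The log2 fold change was 4.54 ± 0.41 (SE) at the first step and 1.73 ± 0.11 at the second, with adjusted p of 0.000377 and 4.83e-07 from edgeR's quasi-likelihood test with Benjamini-Hochberg adjustment, the test behind every adjusted p here. In all class comparisons the 4 libraries are the replicates and the library is a block.

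Scn1a and Scn2a, both major sodium channels of mature cortex, passed the start limit in newborn neuron-like cells. Between these and the upper-layer and layer 6 classes they differed in opposite directions. Scn1a had 81.0, 72.6, 69.3 and 75.9 CPM in newborn neuron-like cells, 53.8, 46.8, 56.4 and 46.6 CPM in upper-layer cells and 3.57, 8.05, 2.61 and 5.80 CPM in layer 6 cells. Scn2a went the other way, from 18.9, 30.1, 10.3 and 26.7 CPM in newborn neuron-like cells to 64.3, 94.8, 44.4 and 73.2 CPM in upper-layer and 144, 249, 70.3 and 199 CPM in layer 6 cells. Each library showed the fall of the one and the rise of the other. Layer 6 against newborn cells gave a log2 fold change of -3.92 ± 0.25 for Scn1a (edgeR adjusted p = 4.14e-05) and 2.98 ± 0.09 for Scn2a (3.59e-13), and upper-layer against newborn cells gave -0.53 ± 0.07 and 1.75 ± 0.09. For Scn2a the libraries with replicate number 2 were above those with number 1 in both groups and in all 3 of these neuron classes, so its absolute level varied between libraries more than its order across classes. The auxiliary subunit Scn3b rose along the same path, with 1.32 to 2.33 CPM in radial glia-like, 11.7 to 23.1 CPM in newborn and 52.4 to 59.7 CPM in layer 6 neuron-like cells. The remaining 6 alpha subunits and 3 beta subunits did not reach the start limit.

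**Figure D2:**
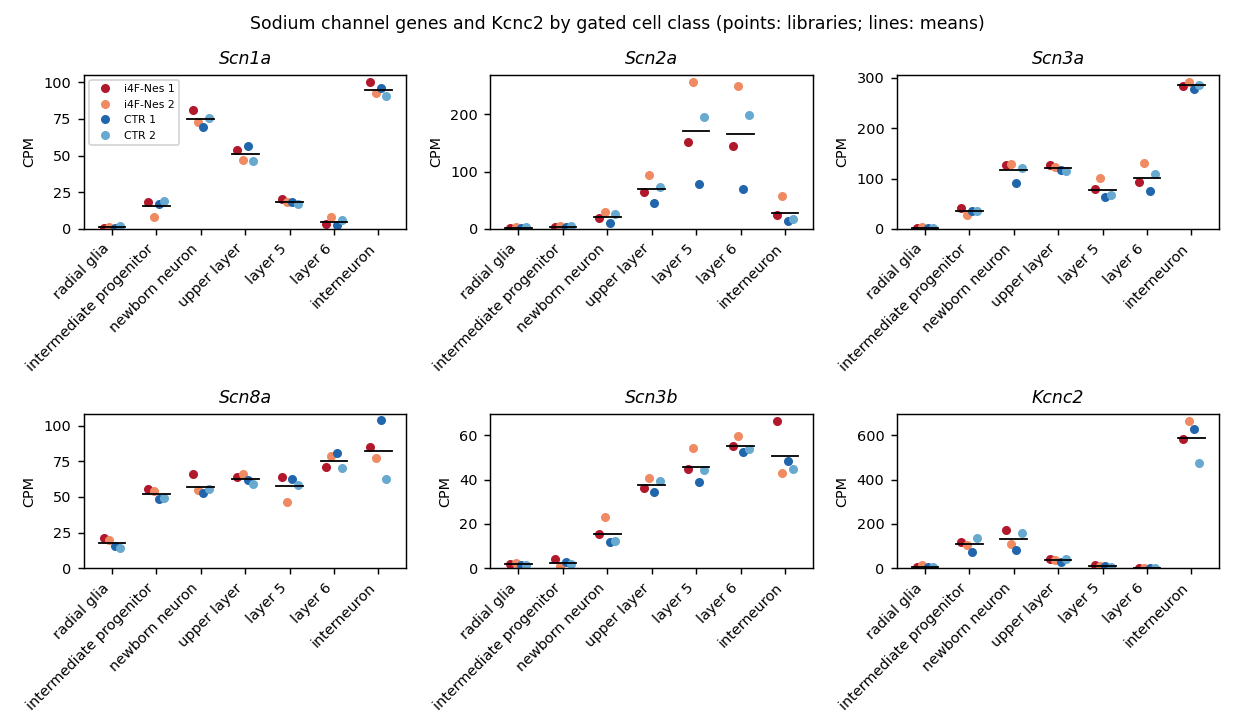
CPM of Scn1a, Scn2a, Scn3a, Scn8a, Scn3b and the potassium channel gene Kcnc2 in 7 cell classes, each point one of the 4 libraries. Scn1a lies at 69.3 to 81.0 CPM in newborn and 2.61 to 8.05 CPM in layer 6 neuron-like cells, Scn2a runs opposite, and Kcnc2 stands at 472 to 663 CPM in interneuron-like cells.

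The first step of the path, intermediate progenitor-like against radial glia-like cells, changed most of the channel genes that could be tested. Of the 57 tested, 38 rose and 10 fell, where 36.6% of all 13306 genes tested rose and 34.2% fell. The median log2 fold change was 1.22 over the channel genes and 0.03 over all genes. By role, all 4 tested sodium channel alpha subunits rose, as did 5 of 6 calcium channel alpha1 subunits, 6 of 7 calcium- or sodium-activated channels and 13 of 19 voltage-gated potassium channel alpha subunits, while 3 of 5 two-pore channels fell.

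Kcnb2, a delayed rectifier pore subunit on chromosome 1 (chr1:15287254-15723750, mm10, + strand), had the largest rise among the genes named by rule. It had 10.48 CPM in the lowest and 11.7 CPM in the highest of the 4 radial glia-like libraries and 508, 292, 487 and 480 CPM in intermediate progenitor-like cells, and stayed at 333 to 377 CPM in newborn neuron-like cells. Every intermediate progenitor-like value was far above every radial glia-like value, and the log2 fold change was 5.49 ± 0.17 (edgeR adjusted p = 9.57e-07). Microglia-like cells, which are of another lineage, had 33.0 to 147 CPM of Kcnb2, above the radial glia-like range, and RNA of other cells or doublets in these counts was not tested. Kcnj3, a pore subunit of G-protein-gated inward rectifiers, had 1.81 to 2.82 CPM in radial glia-like and 35.8 to 53.8 CPM in intermediate progenitor-like cells (log2 fold change 4.39 ± 0.12, edgeR adjusted p = 4.05e-11). Kcnc2, a fast-deactivating pore subunit, rose by 3.98 ± 0.23 on the log2 scale, from 5.08 to 12.2 CPM to 72.3 to 134 CPM. Scn1a, Kcnq3, Kcnh5 and Kcnn2 were the other rises named by rule, with log2 fold changes of 4.12, 3.14, 2.80 and 2.38.

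Kcnh5, a subunit of the ether-a-go-go family, and Kcnk10, a two-pore channel of the mechano- and lipid-sensitive group, were higher in intermediate progenitor-like cells than in any other class. Kcnh5 had 115, 59.4, 95.9 and 89.0 CPM there, 67.8, 41.3, 38.6 and 40.4 CPM in newborn neuron-like cells and 10.2 to 21.6 CPM in radial glia-like cells. Its fall at the second step was 0.91 on the log2 scale (-0.91 ± 0.11, edgeR adjusted p = 5.12e-05). Kcnk10 was high throughout, with 169 to 209 CPM in radial glia-like, 190 to 236 CPM in intermediate progenitor-like and 99.0 to 121 CPM in newborn neuron-like cells, so its lead over the layer 6 mean of 189 CPM was within the spread of the libraries. The RefSeq promoter of Kcnh5 (GRCm38.p6, chr12:75177283-75177582, - strand, 250 bases before to 50 after the start) is shown because this gene led in intermediate progenitor-like cells. Its capitals mark CATCTG, the opposite-strand form of the proneural E-box letters CAGATG, which were found on either strand in 17.2% of 32851 promoters and in 16 of the 89 channel genes with a promoter sequence.
Kcnh5: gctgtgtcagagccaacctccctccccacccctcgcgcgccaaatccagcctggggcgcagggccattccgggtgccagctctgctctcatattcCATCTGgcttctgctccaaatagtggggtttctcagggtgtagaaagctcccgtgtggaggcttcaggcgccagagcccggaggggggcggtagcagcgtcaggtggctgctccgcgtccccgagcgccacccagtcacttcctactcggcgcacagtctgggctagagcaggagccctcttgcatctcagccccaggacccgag

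Among the genes that fell, Kcnj10, the inward rectifier of glia that buffers extracellular potassium, had 31.7, 30.3, 27.4 and 29.6 CPM in radial glia-like cells and 2.93, 4.18, 2.62 and 3.10 CPM in intermediate progenitor-like cells. Its values were at or under 0.663 CPM in newborn neuron-like cells, and radial glia-like cells were the class with its highest level. The log2 fold change of the first step was -3.15 ± 0.13 (edgeR adjusted p = 1.22e-09). Cacnb2, an intracellular beta subunit that carries calcium channels to the membrane, fell from 127, 85.8, 102 and 107 CPM to 33.6, 48.3, 25.9 and 19.4 CPM (-1.68 ± 0.29, edgeR adjusted p = 0.00739). The sodium-activated channel gene Kcnt2, the two-pore gene Kcnk2 and the A-type channel gene Kcnd2 fell by 1.75, 1.37 and 0.95 on the log2 scale. Kcnk2 and Kcnd2 were higher again in newborn neuron-like cells. Kcnk2 had 57.8 to 143 CPM, 27.7 to 37.1 CPM and 90.2 to 173 CPM, and Kcnd2 84.4 to 136 CPM, 39.5 to 63.1 CPM and 262 to 451 CPM, in radial glia-like, intermediate progenitor-like and newborn neuron-like cells. Both therefore had their lowest level of these 3 classes in the middle one.

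At the second step, newborn neuron-like against intermediate progenitor-like cells, 42 of 56 tested channel genes rose and 6 fell, against 26.6% and 28.2% of all genes tested. Their median log2 fold change was 1.03, and -0.01 over all genes. All 6 tested calcium channel alpha1 subunits and all 4 tested sodium channel alpha subunits rose. Cacna1c, the L-type pore subunit, had 16.0, 13.4, 14.6 and 12.9 CPM in intermediate progenitor-like cells and 149, 141, 125 and 131 CPM in newborn neuron-like cells (log2 fold change 3.29 ± 0.07, edgeR adjusted p = 2.89e-13). Its levels had not differed by the test between radial glia-like and intermediate progenitor-like cells (0.03 ± 0.17). Kcnma1, the pore of the large-conductance calcium-activated channel, had 1.83 to 4.18 CPM before and 18.8 to 31.6 CPM after this step. The M-current gene Kcnq3 rose by 2.34 ± 0.05 on the log2 scale (edgeR adjusted p = 3.02e-13), from 91.6 to 145 CPM to 445 to 722 CPM. Kcnd2, Kcnh8, Scn3b and Scn2a were the other rises named by rule, with 2.83, 2.56, 2.47 and 2.43. The falls named by rule were Kcnip3, Kcnk10, Kcnh5 and Cacnb2, by 0.95, 0.94, 0.91 and 0.51 on the log2 scale.

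From newborn to upper-layer neuron-like cells, 37 of 66 tested channel genes rose and 10 fell, against 19.1% and 19.9% of all genes. The median was 0.37 over the channel genes. Kcnq5, another neuronal M-current gene, had 105, 189, 71.2 and 130 CPM in newborn and 455, 938, 223 and 548 CPM in upper-layer neuron-like cells, a rise of 2.07 ± 0.11 on the log2 scale (edgeR adjusted p = 1.4e-06). The lowest upper-layer value was above the highest newborn value, although values within each class spread widely. Kcnma1, Kcna1, Scn2a, Kcnj3, Scn3b, Cacna1b and Cacna1c rose by 1.28 to 1.95. Kcnj3 (1.35, edgeR adjusted p = 0.00646) had an adjusted p of 0.0555 without i4F-Nes 1. Kcnc2 fell by 1.76 and Kcnn3, a small-conductance calcium-activated channel gene with its highest level in newborn neuron-like cells (83.4 to 141 CPM), by 1.16. Falls of Kcnh8, Kcnn1 and Kcnd2 by 0.45, 0.44 and 0.27 had adjusted p of 0.0525, 0.0656 and 0.0558 without CTR 2.

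From newborn to layer 6 neuron-like cells, 44 of 68 tested channel genes rose and 12 fell, against 30.4% and 30.9% of all genes, with a median of 1.11. Cacna1e, the R-type calcium channel on chromosome 1 (chr1:154390731-154884501, - strand), had 12.4, 25.3, 9.39 and 11.2 CPM in newborn, 12.9, 32.8, 13.5 and 24.5 CPM in upper-layer, 120, 143, 126 and 136 CPM in layer 5 and 519, 691, 571 and 578 CPM in layer 6 neuron-like cells. The deep classes stood apart from the others in every library, and layer 6 from layer 5. The log2 fold change of layer 6 against newborn cells was 5.49 ± 0.17 (edgeR adjusted p = 1.29e-09). Kcna6, a member of the family of low-threshold axonal channels, and Kcnv1, a silent subunit that modifies other channels, were at or under 2.61 CPM in every newborn library and had 18.7 to 25.5 and 31.0 to 33.6 CPM in layer 6. Kcnk1, Kcnip1, Kcnip2 and Scn2a followed with rises between 2.98 and 4.01 (Kcnip1 overlaps another gene on its strand, so its counts are uncertain). Kcnc2 ran the other way, with 175, 111, 82.4 and 160 CPM in newborn, 43.2, 34.9, 29.5 and 43.3 CPM in upper-layer and 2.07, 2.92, 1.19 and 2.14 CPM in layer 6 neuron-like cells. Its fall from newborn to layer 6 cells had a log2 fold change of -5.98 ± 0.15 (edgeR adjusted p = 2.12e-13). Kcnk2, Kcnn1, Kcnh8, Kcnd2, Kcnn3 and Kcnd3 also fell, and the fall of Kcnd3 (-0.47, edgeR adjusted p = 0.0227) had an adjusted p of 0.0570 without i4F-Nes 1, 0.0841 without i4F-Nes 2 and 0.0836 without CTR 1.

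The deep classes differed in many channels. In layer 5 against layer 6 neuron-like cells, 11 of 71 tested channel genes were higher and 37 lower, where 25.6% of all genes were higher and 23.8% lower, and the median log2 difference was -0.33. All 8 tested calcium channel alpha1 subunits were lower in the layer 5 class, with log2 differences from -2.13 to -0.28, and Cacna1e had the largest (-2.13 ± 0.07, edgeR adjusted p = 2.11e-10). Of the 7 tested auxiliary subunits of voltage-gated potassium channels 5 were lower, among them Kcnab1 with 5.65, 11.3, 4.41 and 7.87 CPM in layer 5 and 34.7, 31.2, 36.8 and 50.4 CPM in layer 6. Kcnq5 was higher in the layer 5 class, with 1291, 2601, 680 and 1842 CPM against 307, 556, 235 and 532 CPM, and the lowest layer 5 value was above the highest layer 6 value. Its log2 fold change was 1.94 ± 0.10 (edgeR adjusted p = 1.37e-07). Kcnt2 had 67.8 to 139 CPM against 37.6 to 40.7 CPM, and Scn1a 17.2 to 20.3 CPM against 2.61 to 8.05 CPM (2.03 ± 0.26, edgeR adjusted p = 0.000949). Kcnn2 (0.74, adjusted p = 0.0336) had adjusted p of 0.0853, 0.107 and 0.0872 without i4F-Nes 1, CTR 1 or CTR 2, and Kcnip4 (-1.93, adjusted p = 0.0453) had 0.0971, 0.155 and 0.161. With a stricter layer 5 and layer 6 rule, 26 channel genes passed, 6 higher and 20 lower, and the share of all genes under that rule is not given here.

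**Figure D3:**
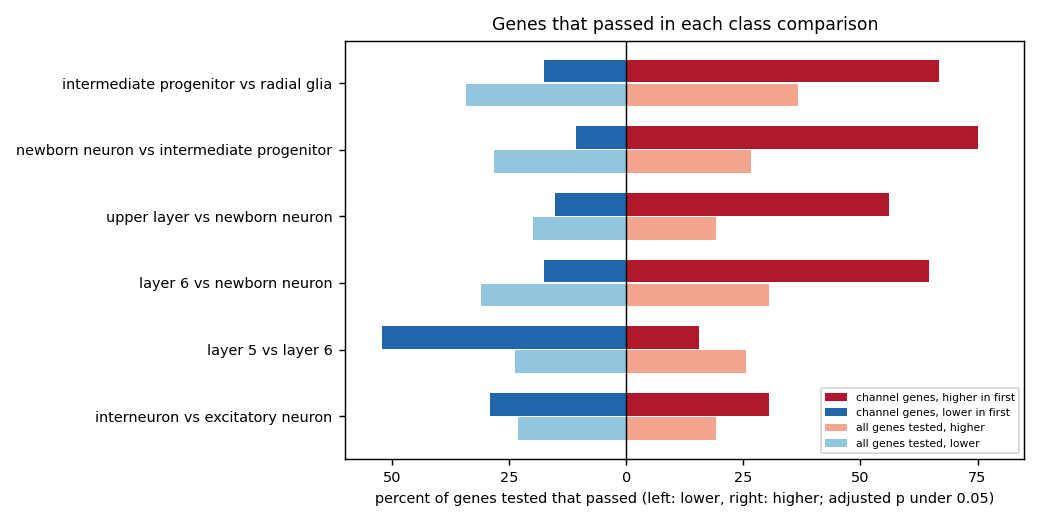
Percent of genes tested that passed in each of 6 class comparisons, with bars to the right for genes higher in the first-named class and to the left for genes lower, drawn for channel genes and for all genes. In layer 5 against layer 6 neuron-like cells the channel bar to the left stands for 37 of 71 genes, against 23.8% of all genes.

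Interneuron-like cells were gated on Gad1, Gad2 and Dlx genes. They differed in the levels of some channel genes from the cortical excitatory neurons (upper-layer, layer 5 and layer 6 classes together). Of 79 tested channel genes 24 were higher and 23 lower, against 19.2% and 23.0% of all genes, with a median log2 difference of 0.05. These cells were shallower, at a median of 6166 to 7591 UMIs a cell against 13049 to 16553, and numbered 117, 77, 175 and 347. Kcnmb2, an auxiliary subunit of the large-conductance calcium-activated channel, had 545, 421, 459 and 364 CPM in interneuron-like and 5.83, 11.7, 4.70 and 7.60 CPM in excitatory cells (log2 fold change 5.83 ± 0.40, edgeR adjusted p = 0.00182). Kcnc2, known for the fast-spiking interneurons of mature cortex, had 581, 663, 626 and 472 CPM against 20.3, 21.8, 14.3 and 24.7 CPM (4.72 ± 0.25, edgeR adjusted p = 0.000261). In both genes each interneuron-like value exceeded every excitatory value by far. Kcns3, a silent subunit marking such interneurons in the adult, had 17.3 to 37.9 CPM against 0.353 to 0.483 CPM, and Kcnh4, Kcnj6, Cacna1g, Kcnd3 and Kcnh3 were higher by 2.11 to 4.79 on the log2 scale. Scn3a and Scn1a were higher by 1.34 ± 0.08 and 1.57 ± 0.10, and Scn2a was lower (-2.44 ± 0.20, edgeR adjusted p = 2.57e-05).

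The promoter of Kcnmb2 is shown as that of the gene with the largest excess in interneuron-like cells (RefSeq, GRCm38.p6, chr3:31902453-31902752, + strand). None of the letters searched was in this window.
Kcnmb2: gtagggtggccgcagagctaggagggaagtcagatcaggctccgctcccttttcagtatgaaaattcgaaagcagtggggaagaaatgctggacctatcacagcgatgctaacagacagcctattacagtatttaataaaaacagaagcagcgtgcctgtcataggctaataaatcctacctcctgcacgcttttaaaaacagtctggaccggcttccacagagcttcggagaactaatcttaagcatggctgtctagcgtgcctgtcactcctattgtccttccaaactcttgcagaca

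On the lower side, Kcna1, a low-threshold channel of axons, had 0 UMIs in all 4 interneuron-like libraries and 2694 UMIs in excitatory cells, at 19.99 CPM. Against a floor of 3 counts over the group, 0.556 CPM, it was at least 35.9-fold lower in interneuron-like cells. Kcnq5 had 51.1, 168, 47.6 and 55.5 CPM against 660, 1087, 392 and 794 CPM (-3.46 ± 0.22, edgeR adjusted p = 4.06e-05), and Kcnq3 95.4, 147, 118 and 75.7 CPM against 1138, 696, 1087 and 664 CPM (-3.20 ± 0.21, adjusted p = 5.39e-05). Both M-current genes were thus lower here in every library. Kcnj3 and Kcnj11 were also lower (-3.21 and -3.82), as were the silent subunits Kcng1 and Kcnv1 (-4.38 and -3.95), Kcnip4 (-3.54) and Kcnn3 (-3.27). Without CTR 1 the difference of Kcng1 was -6.21.

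Within the interneuron-like cells, 391 had Lhx6, a marker of cells from the medial ganglionic eminence, and no Adarb2, Prox1 or Sp8. A second set of 71 had a caudal eminence marker (Adarb2, Prox1, Sp8 or Htr3a) and no Lhx6. Of the 716 interneuron-like cells, those with Lhx6 together with Adarb2, Prox1 or Sp8 entered neither set. Cells with none of Lhx6, Adarb2, Prox1, Sp8 and Htr3a were also in neither. With counts summed over libraries, Kcnc2 had 563 CPM in the first and 180 CPM in the second, Kcnmb2 435 and 69.6 CPM, Kcnk2 453 and 69.6 CPM, and Kcnd3 187 and 48.2 CPM. Kcns3 had 73 UMIs (22.0 CPM) in the Lhx6 cells and 0 in the others. Kcnq5 and Cacnb2 ran the other way, with 23.2 and 60.7 CPM in the Lhx6 cells and 266 and 191 CPM in those with a caudal marker. In i4F-Nes 2 alone the sets were closer. Kcnq5 had 74.7 CPM in its Lhx6 cells and 86.6 CPM in its caudal-marker cells, and Cacnb2 68.9 and 108 CPM. These are descriptions with no test, since the second set held only 7 and 10 cells in the i4F-Nes libraries.

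Some channels belonged to classes outside the neuronal path. Kcnj8, the inward rectifier pore of vascular ATP-sensitive channels, had 905, 1204, 1046 and 1409 CPM in the 72 mural-like cells, and its next highest class mean was 0.295 CPM. Kcne4, an auxiliary subunit, had 20.8, 41.7, 62.8 and 30.3 CPM in mural-like cells. Kcnk13, the two-pore channel that sets the resting potential of microglia, had 55.6, 62.2, 102 and 138 CPM in the 131 microglia- or macrophage-like cells. Cajal-Retzius-like cells (58) had the highest mean of Kcnip4, 1095 CPM (1494, 639, 1019 and 1227 CPM), a subunit of A-type channels, as well as of Kcnip2 and Kcna6, with 118 and 92.3 CPM. These small classes entered no test.

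Of a list of 29 genes that act with channels but are not channel genes of the set (calcium channel alpha2delta and gamma subunits, intracellular fibroblast growth factors, ankyrins, the Nalcn complex and others), 8 of 24 tested rose and 9 fell from radial glia-like to intermediate progenitor-like cells. The shares of all genes tested there were 36.6% and 34.2%, so these counts were near the background. Ank3, the organizer of the axon initial segment, rose by 4.23 on the log2 scale, Unc79 by 4.01 and Cacna2d1 by 3.48, while Rest, a repressor of neuronal genes, had a mean of 50.2 CPM in radial glia-like and 3.3 CPM in intermediate progenitor-like cells. At the second step 15 of 24 rose and 3 fell, against 26.6% and 28.2% of all genes. In layer 6 against newborn neuron-like cells 18 of 25 rose and 4 fell, against 30.4% and 30.9%. In upper-layer against newborn cells 12 of 23 rose and 2 fell, against 19.1% and 19.9%. In layer 5 against layer 6 cells 2 of 25 were higher and 17 lower, against 25.6% and 23.8%, and in interneuron-like against excitatory cells 15 of 26 were higher and 3 lower, against 19.2% and 23.0%.

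Reprogrammed cells were gated on genes that had led earlier clusters of these data, as progenitors (Hopx, Crip1, S100a11, Cytl1, Tppp3, Cd109, S100a6, Lgals7, Anxa1) and as neuron-like cells (Krt8, Crabp2, Ebf1, Ebf2, Ebf3, Eya2, Thsd7a, Uncx). The first class held 438 and 411 cells in the i4F-Nes libraries and 0 and 3 in the CTR libraries, the second 249 and 295 against 3 and 1. Their channel levels were compared with other classes of the same 2 libraries as a description with no test, calling a gene higher or lower where both libraries differed at least 2-fold. Reprogrammed progenitors were the deepest of the large classes, with a median of 35201 and 25697 UMIs a cell against 15764 and 15481.5 in radial glia-like cells, and the part of depth in these levels was not tested. In their summed radial glia markers they stood at 3073.9 CPM, against 12608.5 CPM in radial glia-like cells.

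In reprogrammed progenitors against radial glia-like cells, 27 channel genes could be measured, of which 6 were higher and 11 lower, where 7.17% and 7.87% of all genes were. With the cells called doublets kept in all classes, 6 of 30 were higher and 8 lower, against 646 and 662 of all 9757 genes. Kcnn4, the intermediate-conductance calcium-activated channel of blood and epithelial cells (chr7:24370263-24386690, mm10, + strand), had 55.6 and 41.6 CPM in reprogrammed progenitors and 0.676 and 1.26 CPM in radial glia-like cells. It had no UMI in the newborn neuron-like cells of these libraries, so it was at least 145-fold higher than there, against a floor of 3 counts over the group (0.344 CPM). Cacnb2 had 323 and 251 CPM against 127 and 85.8 CPM, a gene already high in radial glia. Kcnh8 had 42.6 and 31.4 CPM against 0.254 and 0.718 CPM, and Kcnk1, Kcnmb4 and Cacnb3 were 3.34 to 11.1-fold higher over both libraries. Kcng2, a silent subunit that modifies other potassium channels, had 13.5 and 8.23 CPM in reprogrammed progenitors, 328 UMIs in all, against 1 UMI in radial glia-like cells, a ratio of 197 with a 95% counting interval from 35.2 to 7821.

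The promoters of Kcnn4 and Cacnb2 are shown because reprogrammed progenitors had the highest level of Kcnn4 of any class and, beside mural-like cells (a mean of 240 CPM), of Cacnb2 (RefSeq, GRCm38.p6, chr7:24370013-24370312 and chr2:14604056-14604355, both + strand). Letters of motifs of the cassette's factors were searched on both strands: ATGCAAAT for the octamer, CATTGTT for Sox proteins, GGGTGTGG for Klf4 and CACGTG for Myc, present in 1.74%, 3.78%, 3.56% and 7.15% of 32851 promoters and in 1, 0, 3 and 6 of the 89 channel gene promoters. Capitals mark GGGTGTGG and CACGTG in Kcnn4, and none of the letters was in the Cacnb2 window. A match of letters is not a site of binding.
Kcnn4: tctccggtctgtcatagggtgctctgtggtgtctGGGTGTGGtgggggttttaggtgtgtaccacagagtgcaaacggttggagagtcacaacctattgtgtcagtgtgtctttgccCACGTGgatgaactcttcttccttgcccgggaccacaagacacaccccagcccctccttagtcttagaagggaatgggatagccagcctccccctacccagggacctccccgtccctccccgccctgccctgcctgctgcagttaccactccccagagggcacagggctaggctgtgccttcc
Cacnb2: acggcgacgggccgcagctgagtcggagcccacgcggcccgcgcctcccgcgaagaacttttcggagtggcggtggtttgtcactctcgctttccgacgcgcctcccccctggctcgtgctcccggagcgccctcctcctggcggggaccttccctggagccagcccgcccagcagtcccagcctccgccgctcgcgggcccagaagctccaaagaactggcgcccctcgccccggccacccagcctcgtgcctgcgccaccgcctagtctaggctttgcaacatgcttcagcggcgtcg

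Of the genes lower in reprogrammed progenitors than in radial glia-like cells, Kcnk2 had 4.47 and 6.51 CPM against 107 and 143 CPM, Kcnd3 8.18 and 6.51 CPM against 60.4 and 63.9 CPM, and Kcnj10 3.31 and 7.97 CPM against 31.7 and 30.3 CPM. Kcnip1, Kcnn3, Kcnip3, Kcnk10, Kcnip4, Kcnq5 and Kcnn2 were lower too. Compared with newborn neuron-like cells, 4 of 42 measured genes were higher and 29 lower, against 19.0% and 14.7% of all genes. With doublets kept 4 of 43 were higher and 28 lower, against 1836 and 1350 of all 9923 genes. Scn3a and Kcnb2 were at or below their radial glia-like levels: Scn3a had 0.928 and 1.63 CPM against 127 and 129 CPM in newborn cells, and Kcnb2 5.39 and 5.40 CPM against 353 and 333 CPM. Besides Kcnn4, the genes higher than in newborn cells included Kcnk1 and Cacnb2.

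Reprogrammed neuron-like cells had several channels of neurons. Against radial glia-like cells 20 of 37 measured genes were higher and 4 lower, where 13.7% of all genes were higher and 1557 of 10020 were lower. With doublets kept 19 of 41 were higher and 3 lower, against 1195 and 1348 of all 10033 genes. Scn3a had 136 and 169 CPM against 0.930 and 4.13 CPM, and Kcnj3 131 and 131 CPM against 2.37 and 1.97 CPM. Kcnb2 had 206 and 311 CPM, and Kcnh8, at 98.3 and 113 CPM, was higher than in any other class mean. Within the interneuron-like class, however, the few cells with a caudal marker had more Kcnh8, 216 CPM with counts summed over libraries. Kcnj6, a partner of Kcnj3 in G-protein-gated channels, had 21.0 and 23.5 CPM against 3 UMIs in radial glia-like cells, a ratio of 128 with a 95% counting interval from 43.4 to 627.

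Against newborn neuron-like cells, 3 of 44 measured genes were higher and 14 lower in reprogrammed neuron-like cells, against 9.22% and 5.45% of all genes. With doublets kept 5 were higher and 10 lower, against 823 and 381 of all 9319 genes. With stricter gates 5 of 45 were higher and 14 lower, against 856 and 526 of all 9241 genes. Kcnc2 had 9.45 and 14.8 CPM against 175 and 111 CPM, Scn1a 12.7 and 16.2 CPM against 81.0 and 72.6 CPM, and Kcnn3 8.80 and 7.50 CPM against 141 and 83.4 CPM. Kcnd2, Kcnq3, Kcnk2, Kcnq5, Kcnh5, Kcnn2 and Kcnj11 were lower as well, Kcnq3 with 227 and 137 CPM against 722 and 448 CPM. The 3 higher genes were Kcnj6 (2.98 and 2.98 CPM in newborn cells), the T-type calcium channel gene Cacna1g (22.7 and 22.9 CPM against 2.65 and 8.19 CPM) and Cacnb2 (56.7 and 71.2 CPM against 24.0 and 30.9 CPM). With at least 3-fold in both libraries, 11 genes met the limit, 1 higher and 10 lower. Of all 9283 genes measured, 526 were higher and 263 lower by that limit.

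**Figure D4:**
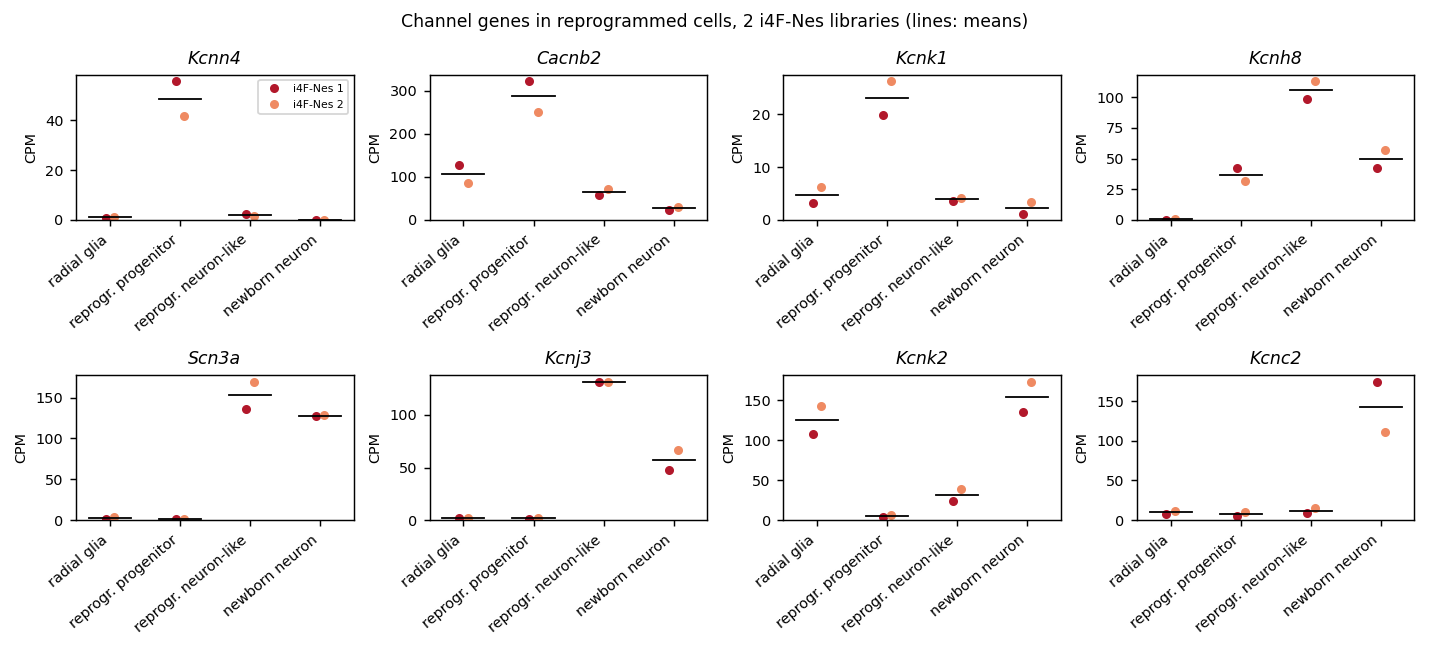
CPM of 8 channel genes in radial glia-like, reprogrammed progenitor, reprogrammed neuron-like and newborn neuron-like cells of the 2 i4F-Nes libraries, one point per library and a line at their mean. Kcnn4 lies at 41.6 and 55.6 CPM in reprogrammed progenitors and at or under 2.28 CPM in the other classes shown, and Scn3a and Kcnj3 at 131 to 169 CPM in reprogrammed neuron-like cells, while Kcnc2 there stays at 9.45 and 14.8 CPM.

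In i4F-Nes against CTR over all kept cells, 3 of 99 tested channel genes were higher and 0 lower, against 2.26% and 0.0162% of all 18547 genes tested. With no block and 2 libraries a group, 13 channel genes had an unadjusted p under 0.05 and DESeq2 called 4. Here and below, the share of all genes with an unadjusted p under 0.05 is not given. Such counts are therefore no result about channel genes. Kcnn4 had 8.14, 6.65, 0.186 and 0.135 CPM (log2 fold change 5.42 ± 0.32, edgeR adjusted p = 0.00799), Kcng2 2.9995, 2.32, 0.124 and 0.147 CPM (4.20 ± 0.35, adjusted p = 0.0124) and Cacnb2 81.1, 75.1, 33.6 and 30.8 CPM (1.19 ± 0.11, adjusted p = 0.0164). The groups did not overlap in any of these 3 genes. In such sums, more cells of a class and more RNA per cell cannot be told apart.

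When the cells gated as reprogrammed were left out, 0 of the 98 channel genes tested passed edgeR's test, and 6 had an unadjusted p under 0.05. The share of all genes that passed with these cells left out is not given here. That count of 0 is therefore no result about channel genes as a set. Cacnb2 then had 42.8, 42.3, 33.6 and 30.8 CPM (log2 fold change 0.35, edgeR adjusted p = 1.00), Kcnn4 0.695, 0.484, 0.186 and 0.135 CPM (1.82, adjusted p = 1.00) and Kcng2 0.553, 0.774, 0.124 and 0.147 CPM (2.22, adjusted p = 0.807). The 10 channel genes with the highest mean level over all kept cells were Kcnq3, Kcnh7, Kcnq5, Kcnb2, Kcnd2, Cacna1c, Kcnn2, Kcnk10, Cacna1e and Cacna1a, and none passed. Kcnb2 had 241, 238, 287 and 281 CPM (-0.33, edgeR adjusted p = 0.305) and Kcnn2 152, 104, 188 and 168 CPM (-0.56, adjusted p = 0.317), both without overlap of the groups. Kcnq5 had 357, 630, 227 and 582 CPM, with the groups overlapping and the values split by replicate number (0.20 ± 0.51).

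**Figure D5:**
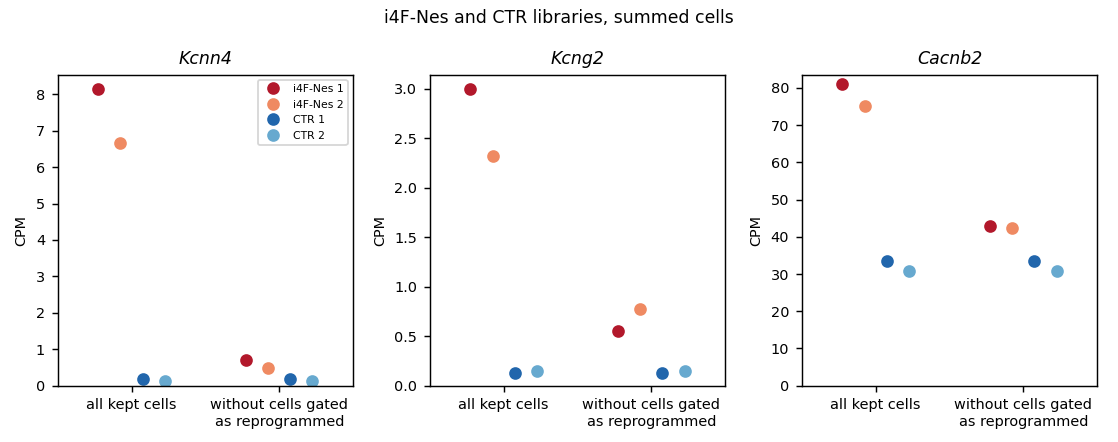
CPM of Kcnn4, Kcng2 and Cacnb2 in each of the 4 libraries, over all kept cells and after removal of the cells gated as reprogrammed. Cacnb2 lies at 75.1 and 81.1 CPM in the i4F-Nes libraries with all kept cells and at 42.3 and 42.8 CPM without the reprogrammed ones, next to 30.8 and 33.6 CPM in CTR.

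Within single classes 0 channel genes passed edgeR's quasi-likelihood test with Benjamini-Hochberg adjustment between i4F-Nes and CTR, fitted with no replicate block. The genes tested numbered 49 in radial glia-like, 57 in intermediate progenitor-like, 57 in newborn, 74 in upper-layer, 73 in layer 6 and 47 in interneuron-like cells. Of them 12, 4, 8, 4, 3 and 5 had an unadjusted p under 0.05, with no share of all genes to set beside these counts. DESeq2 called 1 in newborn neuron-like cells and 0 in each of the other 5 classes. Of all genes 0.00766% passed in intermediate progenitor-like, 0.344% in interneuron-like and 0.0% in each of the others. Kcnk2 in radial glia-like cells had 107, 143, 57.8 and 89.2 CPM (0.75 ± 0.24, edgeR adjusted p = 0.999).

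The difference between the groups was also compared between upper-layer and radial glia-like cells by an interaction term, and 0 of 76 channel genes passed edgeR's test, 8 with an unadjusted p under 0.05, where 0.0% of all genes passed. The lowest adjusted p was 0.283, for Kcnh5 (1.11 ± 0.22). DESeq2 was not run for this term.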

How the data were processed

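UMI counts per gene and cell barcode were deposited as filtered matrices, made by the authors with Cell Ranger 7.0.1 per the file headers, on mm10 according to the submitters' processing notes. For the annotation release, intronic reads, doublets and free RNA nothing was found in the sources used here. The counts are raw whole numbers with no normalization, and all 123 channel genes matched GENCODE M21 by identifier. Kcnab2, Kcnip1 and Kcnk4 overlap Gm16334, 4930469K13Rik and Catsperz on the same strand, so their counts are uncertain.

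Barcodes with at least 1000 UMIs, at least 500 genes and at most 10% mitochondrial UMIs were kept, and those with the highest Scrublet scores were removed as doublets at 0.8% per 1000 barcodes, 2031 in all. A marker was positive at 2 or more UMIs and at least 1 UMI per 10000. Classes required a minimum number of positive markers and excluded markers of other classes; 164 cells that fitted more than 1 class took the first in a fixed order, and 9592 cells entered none. Counts were summed by class and library where a library had at least 20 cells (the small classes were only described), and tested with edgeR 4.0.16 (quasi-likelihood test, TMM, filterByExpr, Benjamini-Hochberg adjustment over all genes tested, threshold 0.05) in R 4.3.3. Class comparisons used the library as a block, and i4F-Nes against CTR used none. Alternatives were DESeq2 1.42.0, no filter on low counts, stricter gates, doublets kept, CTR libraries only, a replicate block, removal of reprogrammed cells and of each library in turn, where the lone sample left is assumed to vary like the other group. The scripts were tested on simulated counts. Since separate animals are not stated, p-values cover the spread between these samples alone, and that spread may be technical. Intervals and floors cover counting error only.

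The channel genes, marker lists and partner list were chosen with earlier results of these data known, and the gate thresholds were set after cell numbers were seen. Genes were named by rule: per class comparison up to 8 per direction that passed, averaged at least 10 CPM in the higher class and differed the same way in every library; for reprogrammed cells up to 10 per direction; for i4F-Nes against CTR all that passed and the 10 highest; up to 3 leading genes per class. Others were named for their role. Promoter sequences are from RefSeq (GRCm38.p6), matched for 89 channel genes. Results for some channel genes are not reported here.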

Additional observations from a re-analysis of the deposited data

How the results depend on the processing

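The results for single genes came to 100, and their alternatives to 813, of which 778 kept direction and side of the threshold, 24 lost the call, 1 gained it and 10 changed sign. All that changed sign were differences between i4F-Nes and CTR over all kept cells that had not passed: without reprogrammed cells Kcnq3 was at 0.13, Cacna1c at 0.12, Kcnk10 at 0.16 and Cacna1e at 0.22. With 1 library left out, Kcnq3 ranged from -0.52 to 0.12 (i4F-Nes 2 left out), Kcnq5 from -0.33 to 1.06 (below 0 without i4F-Nes 2, -0.28, or CTR 1), Cacna1c from -0.22 to -0.12, Kcnk10 from -0.17 to 0.06 (i4F-Nes 2) and Cacna1e from -0.29 to 0.11 (above 0 without i4F-Nes 1, 0.0017, or CTR 2). The cause was not tested. Kcnn2 passed without i4F-Nes 1 (-0.85, edgeR adjusted p = 0.0485).

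The replicate numbers of the labels are not said to pair samples. Same-numbered samples deviated together from their group means (correlation across genes 0.207 to 0.724 by class). With a replicate block, the channel genes past the threshold in i4F-Nes against CTR numbered 10 over all kept cells, 2 in radial glia-like, 9 in newborn, 18 in upper-layer, 9 in layer 6 and 3 in interneuron-like cells. Without reprogrammed cells and with no block there were 0 over the other kept cells, and the share of all genes there is not given. Without the filter on low counts there were 2 in radial glia-like, 1 in intermediate progenitor-like, 3 in newborn and 4 in upper-layer cells, and DESeq2 gave 1 in newborn cells. Leaving out 1 library gave 3 to 6 over all kept cells (6 without i4F-Nes 1), and 0 to 2 in radial glia-like, 0 to 2 in intermediate progenitor-like, 0 to 2 in newborn, 0 to 4 in upper-layer, 0 to 1 in layer 6 and 0 to 4 in interneuron-like cells, the counts above 0 arising without i4F-Nes 1 or CTR 2. Over all genes and kept cells 423 passed in the main test, 1165 with DESeq2, 808 without the filter and 1416 with the block. The cause was not tested. For single classes the shares of all genes under these settings are not given here. The class counts are therefore no result about channel genes.

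Between classes, leaving out 1 library gave 40 to 52 channel genes at the first step, 45 to 49 at the second, 38 to 46 and 50 to 59 for upper-layer and layer 6 against newborn, 38 to 50 for layer 5 against layer 6 and 42 to 51 for interneuron-like cells. Stricter gates gave 26 for layer 5 against layer 6, with 154 layer 5 cells left. The shares of all genes with a library left out or with stricter gates are not given here. These counts and ranges are therefore no result about channel genes. A limit of 3-fold, added after seeing the data, gave 11 for reprogrammed neuron-like against newborn cells. Of all 9283 genes measured there, 526 were higher and 263 lower by 3-fold. Start limits added likewise gave 14 starts in intermediate progenitor-like and 7 in newborn cells at 5 CPM. At 20 CPM they gave 11 in radial glia-like and 7 in newborn cells. Subplate against layer 6 neuron-like cells was not run, since no library had 20 subplate cells. Depth limits low genes most in interneuron-like cells, where 1 UMI in i4F-Nes 2 is 1.65 CPM.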
